A study of Arabidopsis thaliana with 28 samples.

Results

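A set of 67 genes of Arabidopsis thaliana had more transcript in every seedling library with the h2a.z-5 mutations than in any of the matched libraries without them. They were found among 36632 genes in a table of read counts from 18 libraries, after each library was scaled to CPM, the count over the library's total x 1e6. A gene was taken when each of the 9 libraries carrying h2a.z-5 lay above each of the 9 others, when the mean of the 9 was at least 1.3 times that of the others, and when that mean was at least 0.5 CPM. The rule was met by 72 genes, of which 5 were left out by name. The genes were thus chosen by their CPM in the 9 libraries against the 9 others. For them, that comparison is given below as a description with no test. Values of the rule's own comparison cannot serve as support for it.

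The seedlings were 12 days old and came from 6 genotypes with 3 libraries each, grown on soil. These were h2a.z-5, hda6-1 h2a.z-5, hda9-1 h2a.z-5, hda6-1, hda9-1 and Col-0, the wild type. By its label, h2a.z-5 joins a frameshift in HTA8, from an adenosine inserted after base 241 with a stop after base 318, with the T-DNA insertions SALK_054814 and SALK_017235. Each of its crosses with hda6-1 and hda9-1 is labelled with the same name h2a.z-5, so by name every H2A.Z-low group goes back to one combination of alleles. In another table, Col-0 seedlings in medium with sucrose had trichostatin A (TSA), an inhibitor of histone deacetylases, in 5 libraries, and no TSA (Mock) in 5. The series calls the replicates independent biological ones. Its design text names nrp1-1 nrp2-2, alone and with hda6-1 or hda9-1, where every sample label names h2a.z-5, and the sample labels were followed. It asks how acetylation of histone H3 bears on the placing of H2A.Z by the SWR1 complex.

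H2A.Z is a variant of histone H2A that the SWR1 complex exchanges into nucleosomes, where it lies near the starts of active genes and over the bodies of many genes that are weakly transcribed or respond to signals. In Arabidopsis the genes HTA8, HTA9 and HTA11 encode most of it, and plants short of it flower early. HDA6 and HDA9 are deacetylases of histone tails, and TSA blocks enzymes of their class.

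The labels were first checked on the targeted genes. HTA11 lay between 0.760 and 3.40 CPM in the 9 H2A.Z-low libraries, against 39.0 to 74.8 CPM in the 9 others. HTA9 lay between 39.4 and 73.6 CPM, against 108 to 149 CPM, and HTA8 between 2.48 and 9.37 CPM, against 13.7 to 19.97 CPM. None of these ranges overlapped. Much HTA9 transcript remained, so the lines are low in H2A.Z transcript rather than without it. HDA9 averaged 1.04 ± 0.294 CPM with both hda9-1 and h2a.z-5, 1.60 ± 0.0454 CPM with hda9-1 alone and 13.8 ± 1.42 CPM in Col-0 (SD, n = 3 each). The HDA6 transcript was not low in either group labelled with hda6-1. It averaged 17.3 ± 1.92 CPM with both hda6-1 and h2a.z-5, 121 ± 32.2 CPM in the libraries labelled hda6-1 alone and 16.7 ± 3.71 CPM in Col-0 (SD, n = 3 each). The 2 groups labelled with hda6-1 therefore did not have the same HDA6 transcript, and whether the cross carries the allele of the single mutant was not tested. Total counts ran from 32795474 to 39633678 in the genotype libraries and from 30257874 to 40395659 in the TSA and Mock libraries. Markers of leaf tissue marked all groups: 8 photosynthesis genes summed to between 48914 and 66400 CPM in the H2A.Z-low libraries and to between 49948 and 70604 CPM in the others. In bulk seedlings, more cells of a type and more transcript per cell cannot be told apart.

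All 67 members code for protein, as did 97.5% of the 18797 genes with a mean of at least 0.5 CPM in the H2A.Z-low libraries. Their ratio of the H2A.Z-low mean to the other mean had a median of 2.48 and ran from 1.32 to 81.4. It reached 2 in 42 members, 3 in 25, 5 in 7 and 10 in 4. In the 9 other libraries, 35 of the 67 members averaged under 1 CPM, a level seen in 8.01% of the 18797 genes. Their median there was 0.828 CPM, against 10.5 CPM for those 18797. The rule holds a member's mean there below its H2A.Z-low mean, so part of this gap is built in. In the H2A.Z-low libraries the medians were 3.29 CPM for the members and 11.1 CPM for the 18797. The members' median exon length was 1852 bases, close to the 1785 bases of the wider set. Against their own background, the median ratio was 2.18 with h2a.z-5 over Col-0, 2.46 with hda6-1 h2a.z-5 over hda6-1 and 2.39 with hda9-1 h2a.z-5 over hda9-1.

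The members just inside the ratio limit were ECT9, a YTH-domain protein of the family that reads methylated RNA, at 1.32, the cell cycle repressor DEL3 at 1.38 and the reticulon gene AT2G20590 at 1.41. Just outside it were AT2G45850 at 1.26 and AT1G63850 at 1.23. By level, NDB4, BZIP27 and AT5G05840 were just inside with means of 0.525, 0.563 and 0.644 CPM, and AT3G13840, AT5G49200 and AT5G59390 just outside with 0.428, 0.422 and 0.421 CPM. Membership depended on how libraries were scaled: 41 of the 67 met the rule under all of column totals, TMM effective sizes and DESeq2 size factors. SEP3, FAF2, NAT8, AT3G04960, AT2G19910 and MYB17 were among the 23 that did not meet it under TMM. Without replicate 3 of hda9-1 h2a.z-5 the rule took 117 genes, all 67 among them.

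**Figure D1:**
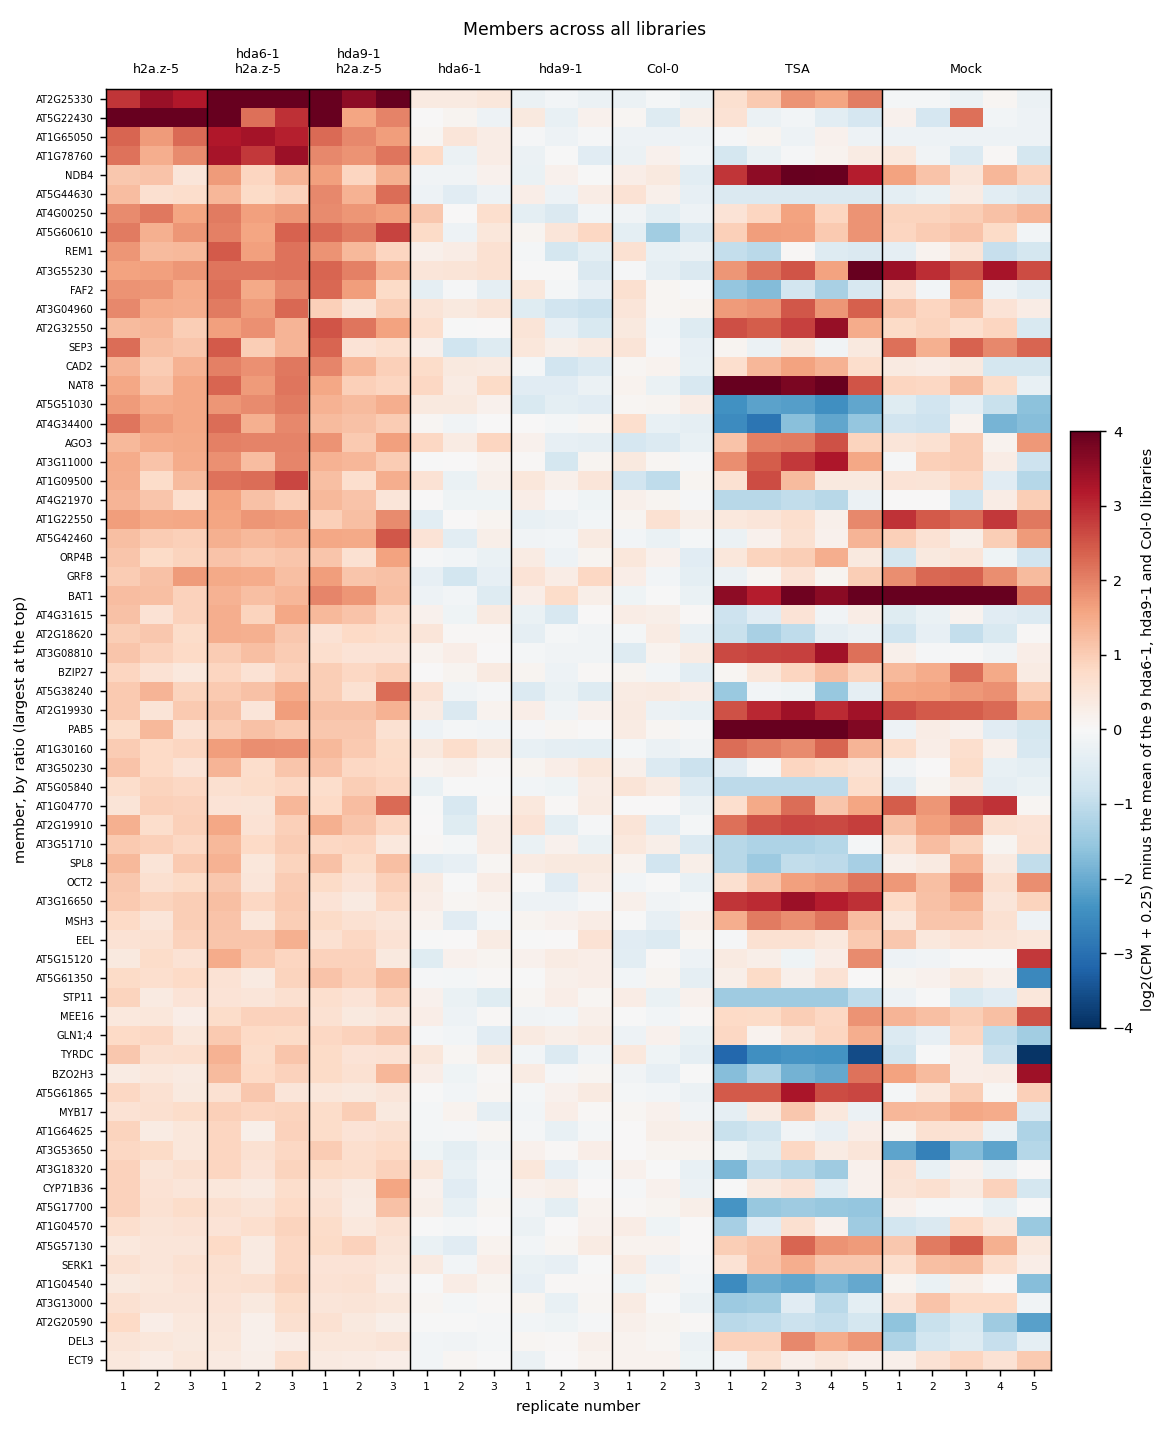
Members across all libraries. Rows are the 67 members by their ratio, columns the libraries by group and replicate number, and the colour is log2(CPM + 0.25) minus the mean of the 9 hda6-1, hda9-1 and Col-0 libraries, shown up to 4 on either side. The first 9 columns were chosen to be above the next 9, and the TSA and Mock columns, from a table of their own, hold members both far above and far below that level.

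The bases before the start of transcription are shown for members whose transcript was close to absent without h2a.z-5 and for a few that carry results further down. Each is the 250 bases before the gene's annotated start, read 5′ to 3′ on the gene's strand from the RefSeq assembly TAIR10.1. Capitals mark TATAAA, the core of a TATA box, on either strand. AT2G25330, on chr2:10791332-10791581 on the minus strand, and AT1G65050, on chr1:24165936-24166185 on the minus strand, both code for TRAF-like proteins, and AT5G22430, on chr5:7433540-7433789 on the plus strand, codes for a secreted pollen allergen type of protein.
AT2G25330: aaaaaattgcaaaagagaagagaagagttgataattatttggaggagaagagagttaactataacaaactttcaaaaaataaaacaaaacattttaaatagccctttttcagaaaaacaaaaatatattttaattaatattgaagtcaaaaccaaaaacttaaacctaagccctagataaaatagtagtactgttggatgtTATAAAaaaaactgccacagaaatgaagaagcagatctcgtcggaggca
AT1G65050: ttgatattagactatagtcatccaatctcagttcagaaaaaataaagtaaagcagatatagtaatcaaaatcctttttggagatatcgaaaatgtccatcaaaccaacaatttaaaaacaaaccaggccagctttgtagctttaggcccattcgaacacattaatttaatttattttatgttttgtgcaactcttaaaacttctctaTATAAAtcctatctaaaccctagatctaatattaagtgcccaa
AT5G22430: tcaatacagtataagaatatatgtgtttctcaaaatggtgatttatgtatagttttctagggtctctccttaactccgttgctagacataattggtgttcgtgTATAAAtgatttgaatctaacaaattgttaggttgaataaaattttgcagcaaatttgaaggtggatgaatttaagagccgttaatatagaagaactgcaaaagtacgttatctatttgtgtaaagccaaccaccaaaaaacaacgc
All 3 hold the TATA letters, which stand closest to the start in AT1G65050. The floral gene SEP3, on chr1:8596124-8596373 on the minus strand, and the poly(A)-binding protein gene PAB5, on chr1:26994260-26994509 on the minus strand, are shown since TSA moved them in opposite directions. The RNA-dependent RNA polymerase genes AT2G19910, on chr2:8600932-8601181, and AT2G19930, on chr2:8612649-8612898, both on the minus strand, are shown as neighbours that moved together.
SEP3: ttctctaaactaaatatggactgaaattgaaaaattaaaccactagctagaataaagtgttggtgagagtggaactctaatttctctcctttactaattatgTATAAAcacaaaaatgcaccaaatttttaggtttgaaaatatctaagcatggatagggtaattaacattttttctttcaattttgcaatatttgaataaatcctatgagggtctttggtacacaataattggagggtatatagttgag
PAB5: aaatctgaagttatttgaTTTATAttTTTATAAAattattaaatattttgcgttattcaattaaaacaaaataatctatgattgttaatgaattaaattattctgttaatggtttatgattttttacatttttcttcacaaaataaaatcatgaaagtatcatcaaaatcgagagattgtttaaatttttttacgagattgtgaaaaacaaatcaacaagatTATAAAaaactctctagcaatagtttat
AT2G19910: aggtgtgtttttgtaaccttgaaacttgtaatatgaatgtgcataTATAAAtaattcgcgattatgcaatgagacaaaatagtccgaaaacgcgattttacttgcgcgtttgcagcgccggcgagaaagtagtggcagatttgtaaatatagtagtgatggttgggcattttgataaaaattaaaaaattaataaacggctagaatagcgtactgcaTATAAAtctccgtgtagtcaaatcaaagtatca
AT2G19930: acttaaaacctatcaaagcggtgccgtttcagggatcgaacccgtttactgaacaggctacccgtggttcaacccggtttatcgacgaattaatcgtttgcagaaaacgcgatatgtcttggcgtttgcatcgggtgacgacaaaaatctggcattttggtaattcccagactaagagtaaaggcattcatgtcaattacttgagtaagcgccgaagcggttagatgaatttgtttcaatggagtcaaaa
AT2G19930 holds no such letters in this window, unlike the other 6.

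Over all 67 windows, TATAAA on either strand was found in 52.2% of members and in 47.3% of 27443 genes. The G-box CACGTG, bound by many bZIP and bHLH factors, was in 0 of 67 windows and in 6.49% of all. The heat shock element GAANNTTC was in 7.46% of members and 9.55% of all, the telo-box AAACCCTAA in 2.99% and 2.61%, and the GAGA repeat GAGAGAGA in 4.48% and 4.91%. The CArG box, the site of MADS-box proteins, was in 0 windows of members and in 2.52% of all, and the LEAFY core CCANTGG, added after the first motifs had been counted, in 2.99% and 3.06%. These are matches of letters and say nothing of binding. The GC content had a median of 31.2% in both sets.

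Some members were near absent without h2a.z-5. AT2G25330 stood at 1.90, 2.99 and 2.498 CPM in h2a.z-5, at 6.36, 4.85 and 6.11 CPM in hda6-1 h2a.z-5 and at 5.001, 3.25 and 4.66 CPM in hda9-1 h2a.z-5. It stood at 0.127, 0.128 and 0.152 CPM in hda6-1, at 0, 0.0255 and 0 CPM in hda9-1 and at 0, 0.0305 and 0 CPM in Col-0. The 9 other libraries held 18 reads of it in all, 16 of them in hda6-1. With 285 reads in h2a.z-5 and 1 in Col-0, the ratio was 276, with an exact 95% counting interval of 49.1 to 10930 that covers no spread between plants.

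AT1G65050, the other TRAF-like gene, stood at 1.19, 0.684 and 1.11 CPM in h2a.z-5, at 2.36, 2.64 and 2.23 CPM in hda6-1 h2a.z-5 and at 1.14, 0.838 and 0.658 CPM in hda9-1 h2a.z-5. Col-0 had no read of it in any library, hda9-1 had 2 and hda6-1 had 12. Set against a floor of 3 reads over the 3 Col-0 libraries, it was at least 37.1-fold higher in h2a.z-5. TRAF-like domains serve as protein docking sites, and the 2 genes lie on different chromosomes.

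AT5G22430 varied most within the H2A.Z-low groups. It stood at 16.8, 7.83 and 7.98 CPM in h2a.z-5, at 14.0, 1.60 and 2.79 CPM in hda6-1 h2a.z-5 and at 8.23, 0.940 and 1.34 CPM in hda9-1 h2a.z-5. The 9 others held between 0.0305 and 0.279 CPM. Replicate 1 was the highest in each H2A.Z-low group, and no H2A.Z-low library overlapped the others.

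AT1G78760 and AT5G60610 code for F-box proteins, of the kind that pick proteins for ubiquitin ligases. AT1G78760 averaged 3.55 CPM with both hda6-1 and h2a.z-5, 1.34 CPM with both hda9-1 and h2a.z-5 and 1.24 CPM with h2a.z-5 alone, against 0.271 CPM in hda6-1, 0.102 CPM in hda9-1 and 0.147 CPM in Col-0. AT5G60610 averaged 3.08 CPM with both hda6-1 and h2a.z-5, 4.00 CPM with both hda9-1 and h2a.z-5 and 2.55 CPM with h2a.z-5 alone, against 0.820 CPM in hda6-1, 0.910 CPM in hda9-1 and 0.239 CPM in Col-0. F-box proteins made up 4 of the 67 members, or 5.97%, and 0.900% of the 18329 protein-coding genes with at least 0.5 CPM. The families counted here and below were all ones with members in the set, so a share above the background is partly built in. The background was not matched to the members' level. The storekeeper-related DNA-binding protein AT4G00250 had a ratio of 5.19, the dirigent-like gene AT3G55230 4.51, AT3G04960 of unknown function 3.92 and the Rcd1-like gene AT2G32550 3.74. With means under 1 CPM in the H2A.Z-low libraries, NDB4, a mitochondrial NADH dehydrogenase, had a ratio of 5.96 and the terpenoid cyclase gene AT5G44630 one of 5.22.

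**Figure D2:**
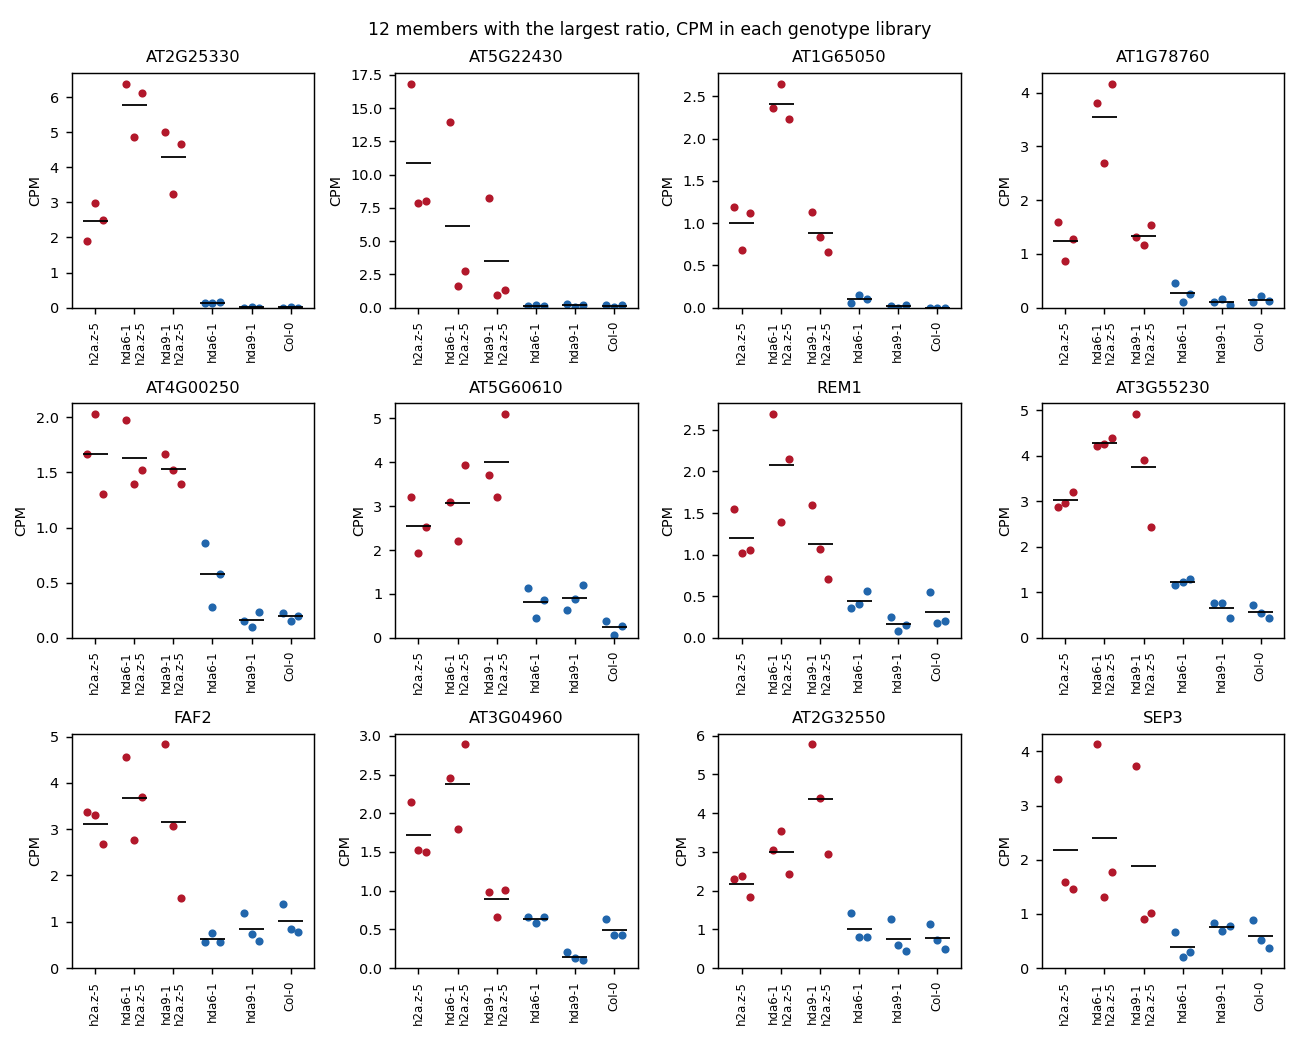
The 12 members with the largest ratio among those with a mean of at least 1 CPM in the H2A.Z-low libraries. Each point is a library, in CPM from 0, and each line the mean of 3. The H2A.Z-low groups stand on the left in each panel; AT2G25330, AT1G65050 and AT5G22430 lie near 0 on the right, while AT5G60610 and AT3G04960 differ among hda6-1, hda9-1 and Col-0.

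A group of members act in flowering and flower development. SEP3, the MADS-box partner shared by most floral organ identity complexes, stood at 3.49, 1.60 and 1.47 CPM in h2a.z-5, at 4.13, 1.32 and 1.77 CPM in hda6-1 h2a.z-5 and at 3.74, 0.914 and 1.01 CPM in hda9-1 h2a.z-5. It stood at 0.659, 0.204 and 0.304 CPM in hda6-1, at 0.836, 0.688 and 0.769 CPM in hda9-1 and at 0.883, 0.518 and 0.378 CPM in Col-0. Replicate 1 was the highest library in all 6 genotypes. The lowest H2A.Z-low library, replicate 2 of hda9-1 h2a.z-5 at 0.914 CPM, stood next to the highest Col-0 library, replicate 1 at 0.883 CPM. FAF2, of a family that limits shoot meristem size, ranged from 1.52 to 4.85 CPM in the H2A.Z-low libraries and from 0.557 to 1.39 CPM in the others. SPL8, a squamosa promoter binding protein needed for fertile anthers, ranged from 2.84 to 5.63 CPM, against 1.07 to 2.72 CPM. The gap between the groups was small in both, relative to the spread within them.

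BZIP27, a close relative of the FT partner FD, ranged from 0.380 to 0.682 CPM in the H2A.Z-low libraries and from 0.101 to 0.355 CPM in the others. MYB17, which promotes floral meristem identity, ranged from 3.92 to 6.04 CPM, against 2.23 to 3.59 CPM. GRF8, of a family that promotes cell proliferation in leaves, ranged from 1.62 to 2.74 CPM, against 0.306 to 1.38 CPM. REM1, a B3 factor of the reproductive meristem family, ranged from 0.709 to 2.69 CPM, against 0.0764 to 0.557 CPM. B3 factors made up 4.48% of members and 0.289% of the protein-coding background, and bZIP factors 4.48% and 0.333%, with the limits given above for families. The other 2 B3 members were AT4G31615 and AT4G34400, and the other 2 bZIP members EEL, which acts on seed storage genes, and BZO2H3, which acts in the response to low sugar.

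Beside SEP3, lists of genes of related function were read in the 3 comparisons of h2a.z-5 with its own background. These use the libraries that the rule compared, and the lists were chosen with earlier results of these data known. Their tests are therefore no support for the set of members. With edgeR's quasi-likelihood test and adjustment over 20771 genes, AP3 rose in hda6-1 h2a.z-5 over hda6-1, with a log2 fold change of 4.46 (SE 0.87) and an adjusted p of 0.00833. In that comparison 0.809% of all genes tested were higher and 1.45% lower. SEP3 is on this list of 12 floral organ genes and was taken out, since the rule had chosen it, which left 11 genes with 8 tested. AP3 was the only one of the 8 called in that comparison, with 5 higher and 0 lower at unadjusted p under 0.05 and 2 higher by DESeq2. In h2a.z-5 over Col-0 none of the 8 was called, where 0.525% of all genes were higher and 0.385% lower, with 4 higher and 1 lower at unadjusted p under 0.05 and 2 higher by DESeq2. In hda9-1 h2a.z-5 over hda9-1 none was called, where 0.636% of all genes were higher and 0.308% lower, with 3 higher and 1 lower at unadjusted p under 0.05 and 1 higher by DESeq2. With the replicate number as a block, a setting added for these lists after the data were seen, AP3, SEP1 and PI were higher in all 3 comparisons, CRC (CRABS CLAW) in h2a.z-5 over Col-0, and AG lower there. In that setting 1.72% to 2.2% of all genes were higher in the 3 comparisons, and 2.06% to 2.85% lower. DESeq2, without the block, called 196 of 20765 genes higher and 192 lower in h2a.z-5 over Col-0. It called 230 and 345 in hda6-1 h2a.z-5 over hda6-1, and 247 and 176 in hda9-1 h2a.z-5 over hda9-1. Here and below, shares of all genes at unadjusted p under 0.05 were not computed, so those counts have no background beside them. The summed level of the 11 genes was 20.8 to 32.2 CPM in the H2A.Z-low libraries and 20.9 to 26.5 CPM in the others, which overlap.

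Markers of the shoot meristem were read in the same way. In h2a.z-5 over Col-0 none of the 5 tested of 7 was called by edgeR, with 1 at unadjusted p under 0.05 and 0 by DESeq2. In hda6-1 h2a.z-5 over hda6-1 none was called by edgeR, with 4 at unadjusted p under 0.05 and 1 by DESeq2, and in hda9-1 h2a.z-5 over hda9-1 none by edgeR, with 4 at unadjusted p under 0.05 and 0 by DESeq2. With the block, KNAT2 was higher in hda6-1 h2a.z-5 over hda6-1 and CUC1 in hda9-1 h2a.z-5 over hda9-1. The summed level of the 7 markers was 11.5 to 30.7 CPM in the H2A.Z-low libraries and 9.51 to 15.5 CPM in the others. Of 10 markers of tapetum, pollen and egg cell, 6 lay under 0.1 CPM in every genotype, and they summed to 0.583 to 1.57 CPM against 0.509 to 1.33 CPM. The part of a shift in shoot tissue in the members' values was not tested.

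Members that handle small RNA, RNA and DNA formed another group. AGO3, an Argonaute that binds small RNAs, stood at 3.21, 3.63 and 3.75 CPM in h2a.z-5, at 5.37, 5.28 and 5.22 CPM in hda6-1 h2a.z-5 and at 4.60, 2.64 and 4.08 CPM in hda9-1 h2a.z-5. It stood at 2.23, 1.51 and 2.25 CPM in hda6-1, at 1.32, 0.866 and 0.846 CPM in hda9-1 and at 0.631, 0.701 and 0.883 CPM in Col-0. All hda6-1 libraries lay above all Col-0 libraries, and all hda6-1 h2a.z-5 libraries above all h2a.z-5 libraries. AT2G19910 ranged from 3.10 to 6.21 CPM in the H2A.Z-low libraries and from 1.35 to 2.99 CPM in the others, and AT2G19930 from 1.12 to 2.89 CPM against 0.408 to 1.01 CPM. Both code for RNA-dependent RNA polymerases, which copy RNA into double strands, and this family held 2 members of 6 such genes with at least 0.5 CPM. AT2G19920, the gene between them, is of the same family and just missed the rule: its lowest H2A.Z-low library had 0.990 CPM and its highest other library 1.03 CPM. The 3 genes are neighbouring copies, so reads may be shared among them by the authors' counting, which is not given in the sources used here.

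PAB5, a poly(A)-binding protein known from flowers and pollen, ranged from 0.787 to 1.47 CPM in the H2A.Z-low libraries and from 0.355 to 0.631 CPM in the others. MSH3, of DNA mismatch repair, ranged from 1.07 to 1.90 CPM, against 0.459 to 0.948 CPM. DEL3, an atypical E2F repressor, ranged from 1.98 to 2.53 CPM, against 1.39 to 1.97 CPM, and ECT9 from 5.94 to 8.06 CPM, against 4.18 to 5.52 CPM. AT3G53650, annotated as a histone gene, ranged from 10.7 to 16.2 CPM, against 5.92 to 9.41 CPM. Histone genes are close copies of each other, so its count is uncertain in the same way.

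The most abundant members had mixed roles, transport and metabolism among them. AT5G17700, a MATE efflux carrier, had the highest mean, 21.4 CPM in the H2A.Z-low libraries against 13.0 CPM in the others, with single values of 16.3 to 29.4 CPM against 9.78 to 15.1 CPM. AT3G13000, of unknown function, followed with 16.2 CPM against 11.3 CPM, then AT3G53650 with 13.5 CPM against 7.91 CPM. TYRDC, which makes tyramine from tyrosine, averaged 10.95 CPM against 6.08 CPM, and GLN1;4, a cytosolic glutamine synthetase, 10.8 CPM against 5.98 CPM. BZO2H3 averaged 10.7 CPM against 6.13 CPM, and AT5G57130, with a Clp amino-terminal domain, 10.4 CPM against 6.70 CPM. AT1G09500, an enzyme with a Rossmann fold, averaged 9.58 CPM against 2.99 CPM, AT1G04540, with a calcium-dependent lipid-binding domain, 9.56 CPM against 6.42 CPM, and AT1G04770, a tetratricopeptide repeat protein, 9.42 CPM against 4.29 CPM. Ratios in this abundant group stayed between 1.44 and 3.20. Of this group, AT3G13000, TYRDC, GLN1;4, BZO2H3, AT1G04540 and AT1G04770 met the rule neither under TMM nor under DESeq2 size factors. Per kilobase of exon, the H2A.Z-low level was highest for AT3G53650 at 14.1 CPM per kb, followed by AT5G17700 at 8.10 and BZO2H3 at 7.44 CPM per kb.

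Other members cover carriers and receptors. The nucleobase-ascorbate transporter NAT8 ranged from 1.44 to 4.46 CPM in the H2A.Z-low libraries and from 0.353 to 1.39 CPM in the others. The facilitator AT1G22550 ranged from 5.10 to 9.92 CPM, against 1.80 to 3.90 CPM, and the sugar carrier STP11, known from pollen tubes, from 0.608 to 1.04 CPM, against 0.228 to 0.580 CPM. Transporters made up 8.96% of members and 2.66% of the protein-coding background, and protein kinases 7.46% and 5.63%. The receptor kinase SERK1, which acts in anthers and embryos, ranged from 4.85 to 6.77 CPM, against 2.88 to 4.79 CPM, a narrow gap. CAD2, related to cinnamyl alcohol dehydrogenases, ranged from 1.75 to 4.16 CPM, against 0.357 to 1.44 CPM. CAD2 overlaps the egg cell gene EC1.2 on the opposite strand by 193 bases, one of 16 members that overlap another gene. Whether the counting used strand is not given in the sources used here, so reads of such pairs cannot be told apart.

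Members with other roles included enzymes, a carrier and kinases. AT5G15120, a plant cysteine oxidase type of gene, ranged from 3.59 to 7.91 CPM in the H2A.Z-low libraries and from 1.83 to 3.46 CPM in the others. BAT1, an acyltransferase of brassinosteroids, ranged from 2.20 to 4.75 CPM, against 0.658 to 1.91 CPM, and CYP71B36, a cytochrome P450, from 4.88 to 11.8 CPM, against 2.70 to 4.46 CPM. The cation carrier OCT2 ranged from 0.965 to 1.60 CPM, against 0.382 to 0.837 CPM. The kinase genes AT5G61350, AT3G50230 and AT1G64625, the F-box gene AT3G18320 and AT4G21970, of unknown function, had ratios of 1.84, 2.42, 1.72, 1.70 and 3.15. The ratios of AT5G51030, AT3G11000, AT5G42460, ORP4B, AT2G18620, AT3G08810, AT5G38240, AT1G30160, AT3G51710, AT3G16650, MEE16, AT5G61865 and AT1G04570 ran from 3.42 for AT5G51030 to 1.61 for AT1G04570.

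The members were spread over the genome. Chromosomes 1 to 5 held 18, 11, 13, 10 and 15 of them, or 26.9%, 16.4%, 19.4%, 14.9% and 22.4%, against 26.4%, 15.2%, 19.97%, 15.2% and 23.3% of the 18797 genes. REM1 and AT4G31615, both B3 genes, are direct neighbours on chromosome 4, run towards each other and overlap by 21 bases. AT2G19910 and AT2G19930 lie 6409 bases apart on chromosome 2. AT2G18620, a terpenoid synthase gene, and MEE16, a RING finger gene, lie 7035 bases apart on the same chromosome, and AT1G04540 and AT1G04570 lie 7402 bases apart on chromosome 1. Of the mutated genes' surroundings, AT3G55230 is the member nearest to HTA11, at 0.276 Mb, and EEL the nearest to HTA8, at 0.911 Mb. No member lies within 4.37 Mb of HTA9.

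Among the 3 H2A.Z-low genotypes, hda6-1 h2a.z-5 had the highest mean in 42 of the 67 members, hda9-1 h2a.z-5 in 21 and h2a.z-5 in 4. Of the 18797 genes the shares were 33.4%, 47.7% and 18.9%. Over hda6-1 h2a.z-5 and h2a.z-5 the difference could be tested, since the rule had placed both on the same side. With edgeR's quasi-likelihood test, 4 members were higher in hda6-1 h2a.z-5 and none lower, where 2.01% of 20771 genes were higher and 0.0144% lower. At unadjusted p under 0.05, 13 were higher and 0 lower, with no share of all genes computed. DESeq2 called 6 and 0, where 515 of 20765 genes were higher and 15 lower. A block for the replicate number gave 6 and 0, adding AT1G65050 and BZO2H3, where 3.05% of all genes were higher and 0.183% lower. The median log2 fold change was 0.21 for the members and -0.0021 for all genes tested, and 57 of 67 lay above 0.

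The 4 were AT1G78760, AT1G09500, AT2G25330 and AT1G30160. AT1G78760 had 3.80, 2.69 and 4.16 CPM in hda6-1 h2a.z-5 and 1.59, 0.862 and 1.28 CPM in h2a.z-5, and rose by a log2 fold change of 1.51 (SE 0.34, edgeR adjusted p 0.0247). AT1G30160, with an unknown domain, had 12.3, 13.9 and 13.7 CPM against 7.76, 6.52 and 6.84 CPM, and rose by 0.92 (SE 0.19, edgeR adjusted p 0.0117). The groups did not overlap in either. AT1G09500 rose by 1.23 (SE 0.28, edgeR adjusted p 0.0262) and AT2G25330 by 1.22 (SE 0.28, edgeR adjusted p 0.0271). These calls were fragile: without one library the count was 1 without replicate 1 of h2a.z-5, 1 without its replicate 2, 0 without its replicate 3, 2 without replicate 1 of hda6-1 h2a.z-5, and 1 without its replicate 2 or its replicate 3.

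In the libraries labelled hda6-1, 7 members were higher than in Col-0 and none lower by edgeR, where 2.95% of 20771 genes were higher and 0.101% lower. At unadjusted p under 0.05, 12 were higher and 1 lower, with no share of all genes computed. DESeq2 called 7 and 0, where 678 of 20765 genes were higher and 55 lower. A block for the replicate number gave 9 and 0, adding AT3G55230 and AT1G09500, where 4.12% of all genes were higher and 0.722% lower. The 7, of 67 tested or 10.45%, were AGO3, AT2G25330, AT1G65050, AT5G60610, AT4G00250, AT1G30160 and NAT8. The median log2 fold change of the members was 0.11, against -0.02 for all genes. The rule bounds both groups from above but says nothing of their order. The filter on low counts was run over all 18 libraries, so a member can pass it through its H2A.Z-low libraries. AT2G25330 and AT1G65050 had at most 6 reads in any hda6-1 or Col-0 library. The share of members called is therefore not like for like with that of all genes, here and in hda9-1 over Col-0. The HDA6 transcript in the libraries labelled hda6-1 was far above that in Col-0 and in hda6-1 h2a.z-5, as given above.

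AGO3, with the values given above, did not overlap between the groups and rose by a log2 fold change of 1.52 (SE 0.26, edgeR adjusted p 0.00153). AT5G60610 had 1.14, 0.459 and 0.861 CPM in the libraries labelled hda6-1 and 0.378, 0.0610 and 0.278 CPM in Col-0, and rose by 1.82 (SE 0.42, edgeR adjusted p 0.0205). AT4G00250 had 0.862, 0.281 and 0.583 CPM against 0.227, 0.152 and 0.202 CPM, and rose by 1.62 (SE 0.38, edgeR adjusted p 0.0222). These too were separated between the groups. AT1G30160 had 4.94, 6.10 and 4.96 CPM against 3.46, 3.08 and 3.36 CPM, and rose by 0.80 (SE 0.19, edgeR adjusted p 0.0271). NAT8 had 1.39, 0.918 and 1.34 CPM against 0.782, 0.518 and 0.353 CPM, and rose by 1.23 (SE 0.31, edgeR adjusted p 0.0390). AT2G25330 had 16 reads against 1, a ratio of 15.2 with an exact 95% counting interval of 2.36 to 636.5 (edgeR adjusted p 0.0116, DESeq2 adjusted p 0.0504). AT1G65050 had 12 reads against 0, at least 3.79-fold higher at the floor of 3 reads over the Col-0 libraries (edgeR adjusted p 0.0144).

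AGO3 was the only one of the 7 called without any 1 of the 6 libraries. The count was 4 without replicate 1 of Col-0, 3 without its replicate 2 and 2 without its replicate 3. It was 4 without replicate 1 of hda6-1, 5 without its replicate 2 and 4 without its replicate 3. The contrast of hda6-1 h2a.z-5 with h2a.z-5 uses other libraries than that of hda6-1 with Col-0. AT1G30160 and AT2G25330 were higher in both, and the share of all genes higher in both was not computed. Over the 67 members the 2 sets of log2 fold changes had a Pearson r of 0.574 and a Spearman rho of 0.502, with 35 members above 0 in both and 6 below 0 in both. This is across genes, which are not independent replicates, and the libraries of a replicate number share variation. The same values were not computed over all genes tested, so nothing particular to the members can be read from them. In hda6-1 over Col-0, the values of AT1G65050 and AT2G25330 rest on 0 and 1 reads in Col-0.

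**Figure D3:**
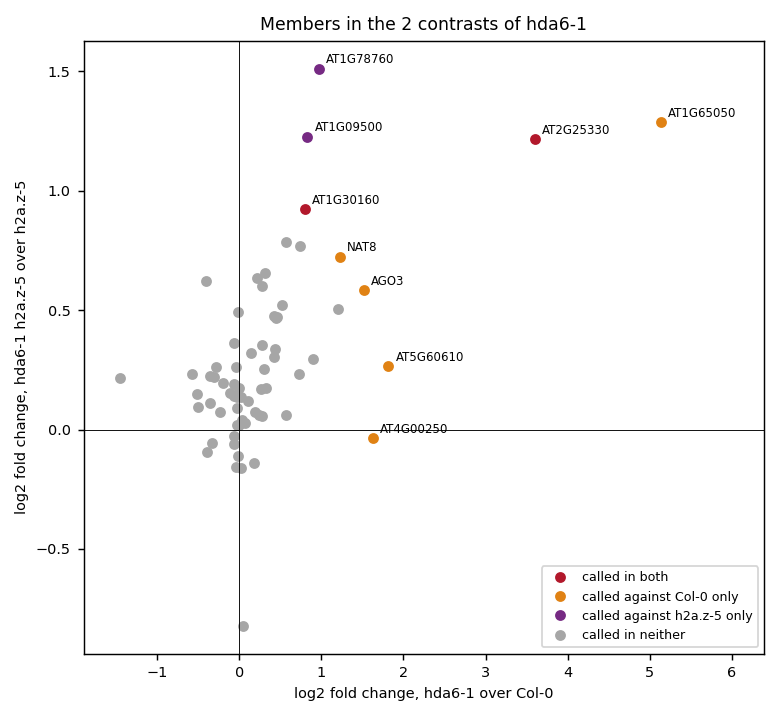
Log2 fold changes of the 67 members in hda6-1 over Col-0 (x axis) and in hda6-1 h2a.z-5 over h2a.z-5 (y axis), from edgeR. Each point is a member, coloured by the comparisons in which its adjusted p was under 0.05; AT2G25330 and AT1G30160 were called in both, and the horizontal place of AT1G65050 and AT2G25330 rests on 0 and 1 reads in Col-0.

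In hda9-1, 1 member was higher than in Col-0 and 2 were lower by edgeR, where 0.79% of genes were higher and 0.958% lower. AT5G60610 had 0.633, 0.891 and 1.205 CPM in hda9-1 and 0.378, 0.0610 and 0.278 CPM in Col-0, and rose by a log2 fold change of 1.88 (SE 0.42, edgeR adjusted p 0.0347). AT3G04960 had 0.203, 0.127 and 0.103 CPM against 0.631, 0.427 and 0.429 CPM, and fell by 1.74 on the log2 scale (SE 0.33, edgeR adjusted p 0.0180). AT5G51030, an enzyme with a Rossmann fold, had 0.734, 0.891 and 0.846 CPM against 1.34, 1.37 and 1.59 CPM, and fell by 0.79 on the log2 scale (SE 0.18, edgeR adjusted p 0.0347). The groups did not overlap in any of the 3. No call held through every left-out library: without replicate 3 of Col-0, 1 was higher and 1 lower, without replicate 1 of hda9-1, 0 and 1, and without replicate 1 or 2 of Col-0 or replicate 2 or 3 of hda9-1, 0 and 0. With the replicate number as a block, 4 were higher and 3 lower, or 5.97% and 4.48%, below the 9.18% and 7.15% of all genes in that fit. The added ones were AT1G09500, GLN1;4 and BAT1 upward and AT1G22550 downward.

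Between hda9-1 h2a.z-5 and h2a.z-5 no member was called by edgeR, where 0.279% of genes were higher and 0.361% lower. At unadjusted p under 0.05, 8 were higher and 3 lower, with no share of all genes computed. DESeq2 called 1 and 1, where 300 of 20765 genes were higher and 259 lower. With the replicate number as a block, 3 were higher and 4 lower, or 4.48% and 5.97%, near the 4.16% and 3.4% of all genes in that fit. AT5G22430 fell by 2.14 on the log2 scale in that fit (SE 0.42, edgeR adjusted p 0.00827) and AT3G04960 by 0.99 (SE 0.21, edgeR adjusted p 0.0128). AT5G42460, an F-box gene, rose by 0.82 (SE 0.20, edgeR adjusted p 0.0238). AT3G04960 was thus lower with hda9-1 in Col-0 without the block, and in h2a.z-5 with it.

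Whether the h2a.z-5 effect differed with a deacetylase mutation was tested as an interaction. For hda6-1 it sets side by side groups that differed in HDA6 transcript, as given above. No member was called by edgeR for hda6-1, where 0.0289% of genes were higher and 0.0241% lower, with 1 higher and 5 lower at unadjusted p under 0.05. None was called for hda9-1, where 0.0289% were higher and 0.00481% lower, with 3 higher and 2 lower at unadjusted p under 0.05. DESeq2 called 0 in each, where 11 of 20765 genes were higher and 19 lower for hda6-1, and 10 and 4 for hda9-1. Shares of all genes at unadjusted p were not computed.

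TSA moved members both ways. Of the 67, 55 passed the filter on low counts in the TSA and Mock table; 20 of these were higher in TSA and 11 lower by edgeR, or 36.4% and 20%, where 18.5% and 16.7% of 20201 genes tested were higher and lower. A member can pass the filter through the group in which it is high, so the counts are no measure of the whole set. The median log2 fold change was 0.28 for the members tested and -0.07 for all genes. Replicate 5 stood apart in both groups, holding 16 of 24 members' values that lay far from the other 4 libraries of their group. Without it in both groups, an alternative added after the data were seen, 23 of 56 members tested were higher and 19 lower, or 41.1% and 33.9%, where 27.2% of 20130 genes were higher and 27.2% lower.

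PAB5 moved furthest. It ranged from 8.80 to 39.9 CPM in TSA with a median of 26.1 CPM, against 0.179 to 0.604 CPM in Mock with a median of 0.364 CPM. Its log2 fold change was 6.34 (SE 0.54, edgeR adjusted p 4.29e-05), and the lowest TSA library was replicate 5. In the same units its highest H2A.Z-low library on soil had 1.47 CPM, in a table scaled separately. The kelch repeat gene AT3G08810 had 2.05 to 4.93 CPM in TSA and 0.207 to 0.358 CPM in Mock, and rose by 3.84 (SE 0.35, edgeR adjusted p 6.55e-05). The WD40 gene AT3G16650 had 18.9 to 27.5 CPM against 3.37 to 6.69 CPM, and rose by 2.44 (SE 0.23, edgeR adjusted p 6.99e-05). DEL3 had 3.39 to 7.01 CPM against 0.562 to 1.25 CPM, and rose by 2.72 (SE 0.29, edgeR adjusted p 0.000136). AT5G61865, of unknown function, rose by 2.75 (SE 0.33) and NDB4 by 3.27 (SE 0.41), with edgeR adjusted p of 0.000208 and 0.000268. NAT8 had 5.10 to 20.5 CPM against 0.512 to 2.01 CPM, and rose by 3.75 (SE 0.49, edgeR adjusted p 0.000345). In all 7 the TSA libraries lay above every Mock library.

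Among the genes of small RNA, DNA and chromatin, AT2G19910, AT2G19930, MSH3, AT3G53650 and AGO3 rose. AT2G19910 had 10.002 to 14.8 CPM in TSA and 3.02 to 8.16 CPM in Mock, and rose by a log2 fold change of 1.61 (SE 0.30, edgeR adjusted p 0.00201). Its neighbour AT2G19930 overlapped between the groups and rose by 1.06 (SE 0.25, edgeR adjusted p 0.00771), MSH3 by 1.54 (SE 0.37, edgeR adjusted p 0.00872) and AT3G53650 by 2.56 (SE 0.35, edgeR adjusted p 0.000389). AGO3 had 2.35 to 7.89 CPM in TSA and 1.27 to 4.35 CPM in Mock, which overlap, and rose by 1.36 (SE 0.42, edgeR adjusted p 0.0265). ECT9 had a log2 fold change of -0.13 (SE 0.22, edgeR adjusted p 0.674) and did not pass. AGO3, AT1G30160, NAT8 and AT5G60610 were the members higher both in TSA and in the libraries labelled hda6-1. The share of all genes higher in both was not computed, so nothing particular to the members can be read from this overlap. In hda6-1 over Col-0, AT1G30160, NAT8 and AT5G60610 each lost their call on leaving out any of 4 of the 6 libraries. The remaining 6 higher members were AT3G04960, AT2G32550, AT3G11000, CAD2, GLN1;4 and ORP4B, with log2 fold changes of 1.41 for GLN1;4 to 2.63 for AT3G11000.

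Members with roles in flowers or growth went both ways in TSA. SEP3, GRF8, SPL8 and FAF2 fell, while PAB5, known from flowers and pollen, and the cell cycle repressor DEL3 rose, as given above. SERK1 was not called, with a log2 fold change of 0.495. SEP3 ranged from 0.427 to 0.800 CPM in TSA with a median of 0.612 CPM, against 1.90 to 3.83 CPM in Mock with a median of 3.40 CPM. The ranges did not overlap, and it fell by 2.04 on the log2 scale (SE 0.28, edgeR adjusted p 0.000448). GRF8 had 0.532 to 1.60 CPM against 1.99 to 4.52 CPM, and fell by 1.63 (SE 0.32, edgeR adjusted p 0.00297). SPL8 fell by 1.62 (SE 0.44, edgeR adjusted p 0.0160) and FAF2 by 2.16 (SE 0.60, edgeR adjusted p 0.0168). BZIP27 and MYB17 did not pass, with log2 fold changes of -0.72 (SE 0.47, edgeR adjusted p 0.257) for BZIP27 and -0.62 (SE 0.43, edgeR adjusted p 0.281) for MYB17. Of the floral organ list, 6 were tested; AG and AP2 rose, and SEP3 and PI fell. Of the flowering time list, 15 were tested; MAF5 rose, and FT, SOC1, MAF1, CO, MAF3 and GI fell. The shares of all genes tested were 18.5% higher and 16.7% lower.

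AT5G17700 had 2.29 to 4.63 CPM in TSA and 10.4 to 14.5 CPM in Mock, and fell by 1.402 on the log2 scale (SE 0.20, edgeR adjusted p 0.000476). The kinase gene AT5G38240 fell by 2.21 (SE 0.36, edgeR adjusted p 0.00111), AT1G04540 by 1.82 (SE 0.37, edgeR adjusted p 0.00356) and AT1G22550 by 1.49 (SE 0.31, edgeR adjusted p 0.00375). AT3G51710, a lectin gene, AT3G13000 and TYRDC made up the 11. Of the 31 calls, 5 were lost when a single library was left out. TYRDC (edgeR adjusted p 0.0374) was lost without any of 9 of the 10 libraries, all but replicate 5 of Mock. ORP4B (0.0372) was lost without replicate 1 or 4 of Mock or replicates 1, 2, 3 or 4 of TSA, GLN1;4 (0.0264) without replicate 1, 2 or 4 of Mock or replicate 1 or 4 of TSA. AGO3 was lost without replicate 1, 2 or 4 of Mock or replicate 3 or 4 of TSA, and with the replicate number as a block (edgeR adjusted p 0.0536). AT5G60610 (0.0298) was lost without replicate 1 or 4 of Mock or replicate 2 or 3 of TSA.

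Blocking on the replicate number gave 20 higher and 12 lower of the 55 members tested, where 4586 of 20201 genes were higher and 4470 lower. It also called BZO2H3 and AT1G09500. BZO2H3 had 1.68, 2.41, 1.46, 1.28 and 28.2 CPM in replicates 1 to 5 of TSA, against 19.2, 15.1, 7.31, 7.49 and 65.6 CPM in replicates 1 to 5 of Mock, so TSA lay below Mock at each replicate number while replicate 5 was far above the rest in both. Its log2 fold change was -2.15 with the block (SE 0.27, edgeR adjusted p 0.000825), and -1.57 without it (SE 0.91, edgeR adjusted p 0.202). AT1G09500 had 1.34 with the block (SE 0.30, edgeR adjusted p 0.00787) and 1.41 without it (SE 0.53, edgeR adjusted p 0.0594).

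**Figure D4:**
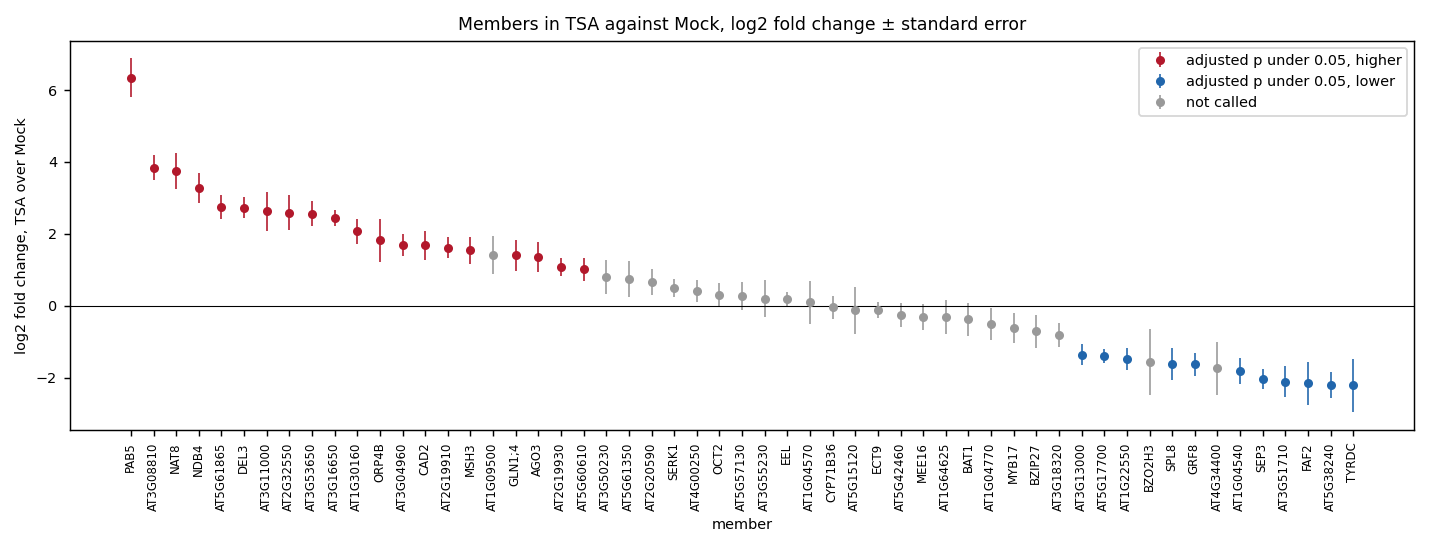
Log2 fold change in TSA over Mock for the 55 members tested, from edgeR, with the standard error as bars, sorted from high to low. Red points (20) were higher and blue points (11) lower at an adjusted p under 0.05; PAB5 stands alone at 6.34, and SEP3, AT3G51710, TYRDC, AT5G38240 and FAF2 lie below -2.

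**Figure D5:**
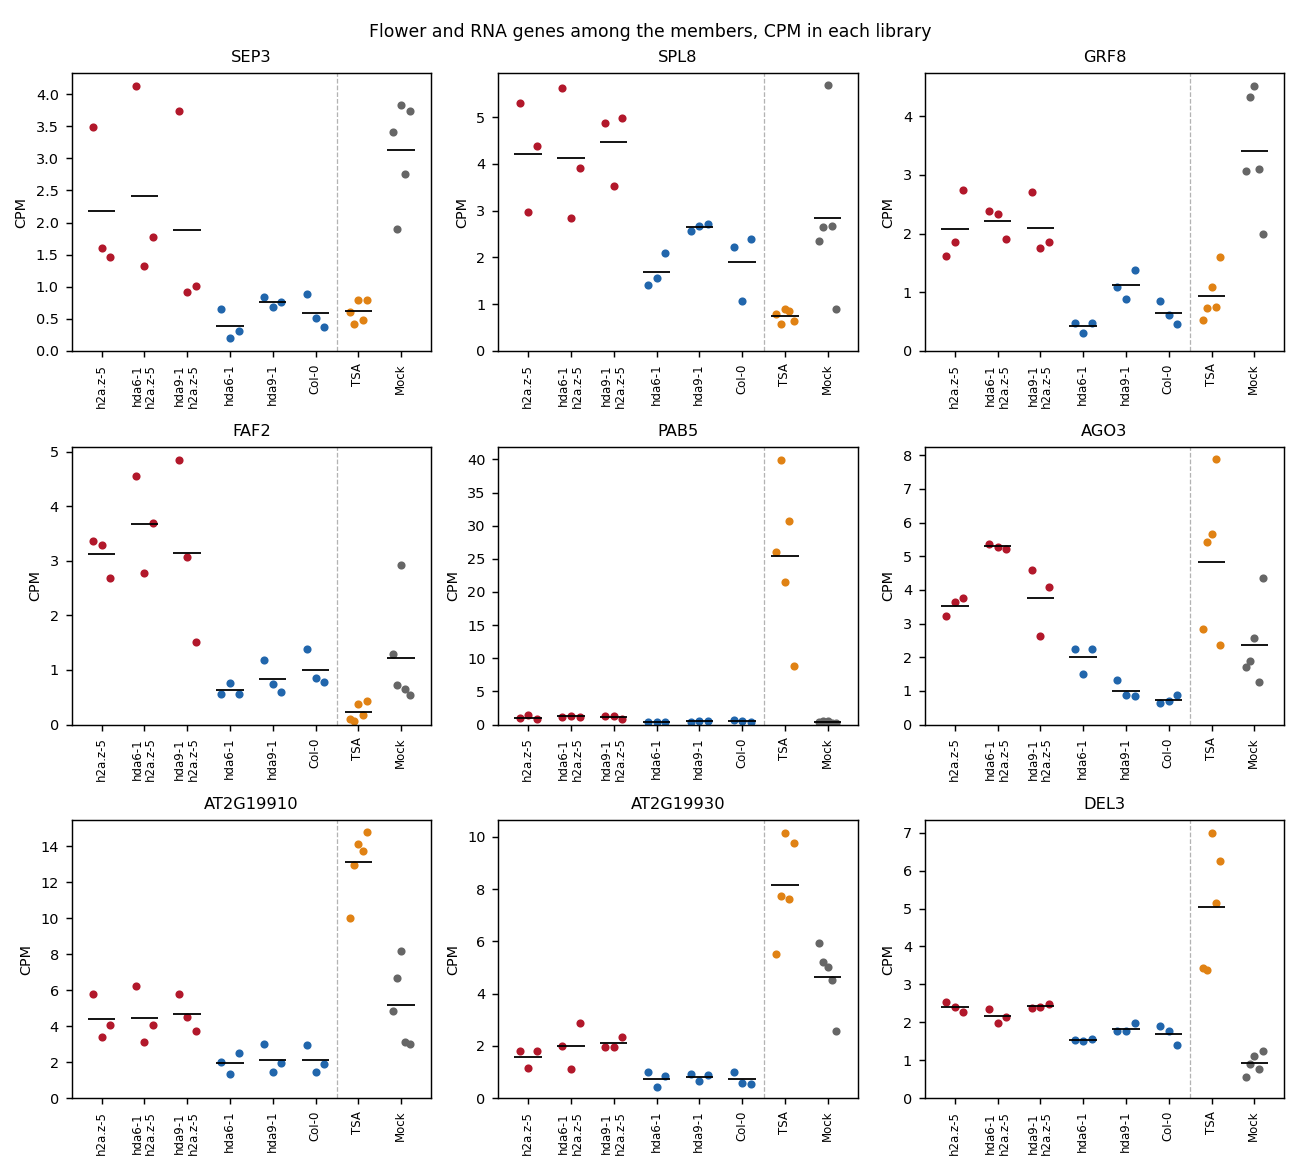
A choice of flower, growth, RNA and cell cycle genes among the members. Each point is a library, in CPM from 0, and each line a group mean; the dashed line parts the soil-grown genotypes from TSA and Mock, a table of its own. SEP3, SPL8, GRF8 and FAF2 were lower in TSA than in Mock, and PAB5, AGO3, AT2G19910, AT2G19930 and DEL3 were higher. MYB17, BZIP27 and ECT9, which were not called in TSA, are not shown.

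The 12 members that did not pass the filter were AT2G25330, AT5G22430, AT1G65050, AT1G78760, REM1, AT4G31615, AT2G18620, AT4G21970, AT5G05840, AT5G44630, AT5G51030 and STP11. AT2G25330 had 0.213, 0.366, 0.767, 0.626 and 0.960 CPM in TSA and 0.0330, 0.0302, 0, 0.0592 and 0 CPM in Mock. Every TSA library was above every Mock library, and with no filter it rose by a log2 fold change of 4.62 (SE 0.71, edgeR adjusted p 0.000747). In that fit STP11 fell by 4.07 on the log2 scale (SE 0.85, edgeR adjusted p 0.00426). AT5G51030 fell by 3.02 (SE 0.54, edgeR adjusted p 0.00165) and AT4G21970 by 2.75 (SE 0.95, edgeR adjusted p 0.0480). With no filter 21 of 67 members were higher and 14 lower, where 4040 of 27663 genes were higher and 3599 lower. AT1G65050 had 6 reads in TSA and 0 in Mock, at least 1.79-fold higher at a floor of 3 reads over the Mock libraries. AT5G22430 did not follow them, with 0 to 0.346 CPM in TSA and 0 to 1.60 CPM in Mock. STP11 had 3 reads in TSA and 64 in Mock, and AT5G44630 0 and 11.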

How the data were processed

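RNA from 12-day seedlings was sequenced in 28 libraries, 18 of 6 genotypes and 10 of TSA or Mock. The authors deposited one table of whole read counts per gene for each of the 2 experiments. Which aligner and counter made them, and with what strand setting, was not given in the sources used here. For the series, the submitters' processing notes name fastp 0.23.4, Bowtie2, SAMtools 1.17, Picard 3.0.0, MACS2 2.2.6, deepTools 3.5.2 and TAIR10, with no role for the RNA libraries stated.

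CPM was computed as count over column total x 1e6. Tests used edgeR 4.0.16 in R 4.3.3: TMM scaling, filterByExpr with a minimum count of 10 and total of 15, the quasi-likelihood F test with 1 mean per group (12 residual degrees of freedom for genotypes, 8 for TSA and Mock), and Benjamini-Hochberg adjustment over all genes tested, with calls at an adjusted p under 0.05. Alternatives were DESeq2 1.42.0, RLE scaling, no filter, the replicate number as a block and each library left out. The fits were tested on simulated data. Counting intervals and floors of 3 reads cover counting error only.

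Replicate numbers come from the labels. Same-numbered libraries deviated together, with correlations of 0.142 to 0.647 over 45 genotype pairs and 0.101 to 0.497 over 5 TSA and Mock pairs. The numbers were therefore taken to pair the libraries, but the main fit leaves the pairing out, and only the block uses it. In hda9-1 over Col-0, 0.79% of all genes were higher and 0.958% lower in the main fit. With the block these were 9.18% and 7.15%.

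Gene names, products and promoters are from RefSeq TAIR10.1, in which all 36632 genes were found. The members and gene lists were chosen with earlier results of these data known. Genes named in full were the 12 with the largest ratio above 1 CPM, the 10 most abundant, those with the smallest p in each comparison, up to 6 or 4 each way, and those nearest the limits of the rule. Other members are described by role and were chosen after their values were seen.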

Additional observations from a re-analysis of the deposited data

Results flagged for a closer look

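In TSA and Mock, 134 groups of 5 libraries were screened for a single value far from the other 4, by a gap above 0.71 of the group's range. This marked 24, where chance marks about 1 in 20 groups, and 16 of the 24 were in replicate 5. No cause was tested.

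In TSA, replicate 5 was high for AT3G55230 at 25.3 CPM, AT4G21970 at 0.213 CPM, AT1G22550 at 10.1 CPM, AT5G05840 at 0.587 CPM and AT3G51710 at 0.640 CPM. It was also high for AT5G15120 at 10.6 CPM, STP11 at 0.0800 CPM, MEE16 at 1.97 CPM, BZO2H3 at 28.2 CPM and AT3G18320 at 4.86 CPM. BZO2H3 lay between 1.28 and 2.41 CPM in the other 4 TSA libraries. Replicate 2 was high for AT1G09500 at 18.3 CPM, replicate 3 for AT5G61865 at 7.30 CPM, and replicate 1 was low for AT5G17700 at 2.29 CPM.

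In Mock, replicate 5 was high for AT5G15120 at 20.3 CPM, MEE16 at 3.43 CPM and BZO2H3 at 65.6 CPM, and low for AT2G32550 at 0.435 CPM, AT5G61350 at 0.512 CPM and MYB17 at 1.94 CPM. AT5G15120, MEE16 and BZO2H3 were thus high in replicate 5 of both groups. Replicate 3 was high for AT5G22430 at 1.60 CPM, AT5G44630 at 0.220 CPM, AT3G50230 at 0.816 CPM and GLN1;4 at 10.8 CPM, and replicate 1 for EEL at 6.05 CPM.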

How the results depend on the processing

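A ratio limit of 2 left 42 members, and leaving out single libraries gave 66 to 117. With the replicate number as a block, hda9-1 over Col-0 gave 4 higher members, or 5.97% against 9.18% of all genes, and hda9-1 h2a.z-5 over h2a.z-5 gave 3 higher and 4 lower, or 4.48% and 5.97% against 4.16% and 3.4%. DESeq2 gave 2 higher of 67 in hda9-1 over Col-0, where it called 622 of 20765 genes higher. It gave 1 higher and 1 lower in hda9-1 h2a.z-5 over h2a.z-5, where 300 of 20765 genes were higher and 259 lower. With no filter 1 was lower in hda9-1 over Col-0, where 116 of 28346 genes were lower. Without replicate 5 of both groups 19 of 56 were lower in TSA, or 33.9% against 27.2% of all genes. Leaving out single libraries gave 2 to 5 higher members in hda6-1 over Col-0, 0 to 2 in hda6-1 h2a.z-5 over h2a.z-5, and 0 to 1 higher and 0 to 1 lower in hda9-1 over Col-0. The causes were not tested, other than that fewer libraries were fitted when one was left out. Of 605 alternatives for single genes, 517 kept their call, 88 did not pass the threshold and none reversed. Members with few reads, such as AT1G65050 in Col-0, are limited by depth.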

Other observations

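Mock seedlings, grown in medium with sucrose, can be set beside the soil-grown libraries only as levels, since the tables were scaled separately and growth differed. The Mock mean lay above all 9 hda6-1, hda9-1 and Col-0 libraries for 32 of the 67 members, or 47.8%, against 49.9% of the 18797 genes. It lay below all 9 for 7 members, or 10.45%, against 18.4% of those genes.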
